A study of Mus musculus with 25 samples.

Results

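The nuclear genes of respiratory complexes II to V, with cytochrome c, were followed in hypothalamus of mice whose dams had eaten a hypercaloric or a regular diet. Members were the mouse symbols beginning Sdha to Sdhd, Uqcr, Cox4 to Cox8 and Atp5, together with Cyc1 and Cycs, that had a mean normalized count of at least 10 in all 4 deposited comparison tables. Of 24421 genes in the tables, 49 matched these names. Atp5s and Atp5sl were left out by name, and Cox8c and Cox7b2 fell under the minimum in at least 1 table. The remaining 45 members comprised 4 genes of complex II, 9 of complex III, 16 of complex IV, 15 of complex V and Cycs.

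The study sequenced poly(A) RNA of hypothalamus from 25 wild-type C57BL/6J mice aged 3 months. HCD is a high-sucrose diet labelled as 52% fat, and RD is regular chow. Dams ate HCD or RD for 1 month before mating and through pregnancy and lactation, and offspring ate HCD or RD from weaning on. Written as maternal diet then offspring diet, the groups were HCD-HCD and RD-HCD, here called HCD-weaned, and HCD-RD and RD-RD, here called RD-weaned, each in males and females. There were 3 mice in each of the 8 groups except RD-RD males, of which there were 4. Whether the mice of a group had different dams is not given in the labels, so a p-value measures only the spread between these mice. The 4 comparisons of maternal diet, 1 for each sex and weaning diet, share no mice. A positive log2 fold change was taken to mean more RNA in offspring of HCD dams. No deposited comparison says which maternal diet is the numerator. For HCD-weaned offspring the direction was read from the labels' words control and comparison. For RD-weaned offspring only the sequence of the group names gives it. Were the direction of a table wrong, every sign of that table would turn. Values of single mice cannot be given, because the deposited library columns carry running numbers that match no label, and depth per sample is for the same reason not given here.

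Complex II takes electrons from succinate in the citric acid cycle and passes them to ubiquinone. Complex III moves them on to cytochrome c, and complex IV hands them to oxygen; complexes III and IV also pump protons across the inner mitochondrial membrane. Complex V, the ATP synthase, lets protons flow back and uses that energy to make ATP, on which neurons depend heavily for ion pumping and synaptic transmission. Complex II is encoded wholly in the nucleus, whereas complexes III, IV and V also hold subunits encoded in mitochondrial DNA, which were not analysed here.

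The members were among the well-expressed genes of these tables. Together they held between 1.79% of the summed mean normalized count, in the table of RD-weaned males, and 2.27%, in that of HCD-weaned females. Per kb of transcript, the median member had a mean normalized count of 12015 in HCD-weaned females, against 176 for all genes tested there. Cox4i1, the general form of the complex IV subunit that binds regulatory nucleotides, was the highest per kb in all 4 tables, at 35528 in RD-weaned males and 68044 to 75682 in the other 3. The tables were normalized separately, so a level in one was not tested against a level in another. Complex II had the lowest median per kb of the 4 complexes in each table, for example 4787 in HCD-weaned females, and its members lay within 2.74 times of each other there. Complex III had a median of 8236 per kb in HCD-weaned females and ran from 4116 for Uqcrc2 to 44899 for Uqcrh, the acidic hinge protein that aids the docking of cytochrome c. Complex IV had a median of 15265 and complex V of 12885 per kb in the same table.

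**Figure D1:**
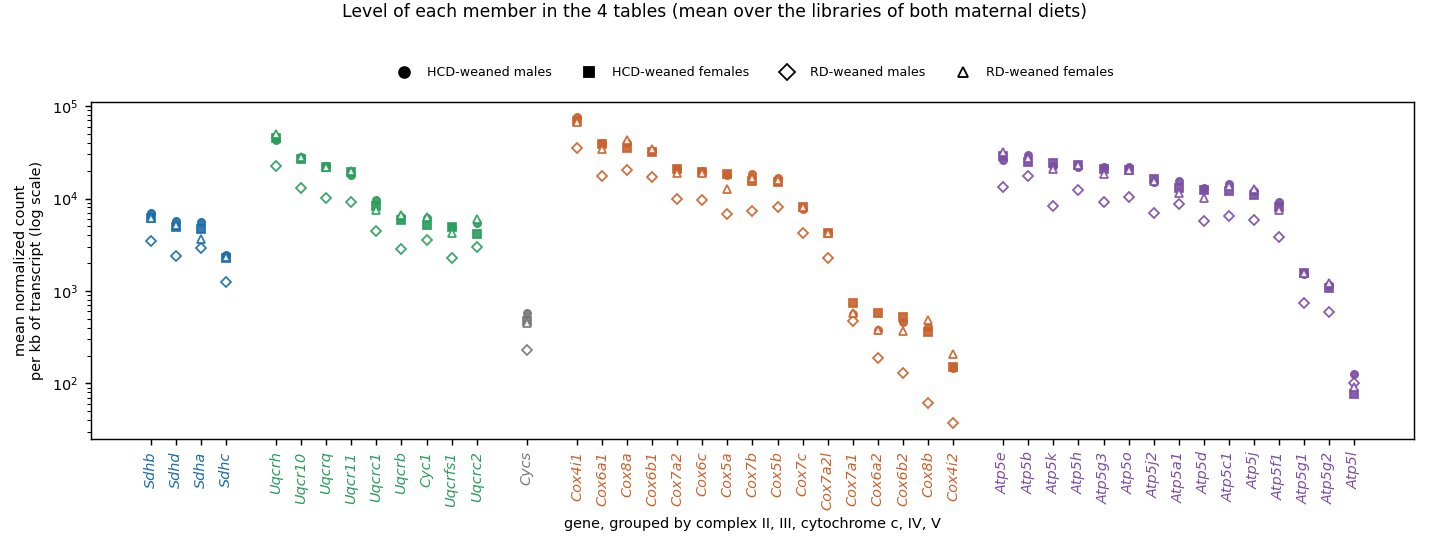
Mean normalized count per kb of median transcript length (log scale) of each of the 45 members, grouped and coloured by complex; the 4 symbols stand for the 4 tables, each a mean over libraries of both maternal diets. The 5 tissue isoforms of complex IV lie between 36.9 and 741 per kb and Atp5l between 77.7 and 127, under all other members of their complexes in the same table.

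Complex IV members split by isoform. The general forms Cox4i1, Cox5a, Cox5b, Cox6a1, Cox6b1, Cox6c, Cox7a2, Cox7b, Cox7c and Cox8a spanned 8126 to 69135 per kb in HCD-weaned females. The forms best known from lung, muscle, heart or testis, namely Cox4i2, Cox6a2, Cox6b2, Cox7a1 and Cox8b, spanned 151 to 741 per kb there. Among the 3 genes that encode the same mature c subunit of the ATP synthase ring, Atp5g3 had 20728 per kb in HCD-weaned females, Atp5g1 1556 and Atp5g2 1064. Their median annotated transcripts measured 718.5, 2675.5 and 586 bases, and their mean normalized counts there were 14893, 4163 and 623. The gap between Atp5g1 and Atp5g2 thus depends on the annotated length. Atp5l, subunit g of the ATP synthase membrane part, had only 77.7 per kb. Atp5l shared stretches of at least 100 bases at 95% identity or more with 9 annotated pseudogenes, the most of any member, so its counts are uncertain. Such a match to at least 1 pseudogene was found for 15 of the 45 members, whose counts are uncertain in the same way, and not for Cox5a, Atp5d, Cox6a1 or Sdhb; Cox5a shares sequence with the overlapping gene Gm26631.

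Tissue markers and sex-linked genes bear on every comparison. Xist was high in both female tables and near 0 in both male tables, as the sex labels say. Summed over 11 marker genes of hypothalamic neurons, the mean normalized count made up 0.0154% of the whole table's sum in RD-weaned males and between 0.0233% and 0.0455% in the other 3 tables. Up to 4 of these 11 markers had a mean under 10 in a table, and the oxytocin gene Oxt had a mean of only 13.9 in RD-weaned males. Marker lists of other regions had larger sums in every table. The ranges were 0.0462% to 0.0815% for 6 thalamus markers and 0.0331% to 0.0626% for 6 of cortex and hippocampus. They were 0.0735% to 0.137% for 6 striatum markers and 0.403% to 0.520% for 5 choroid plexus markers. The lists hold different genes, so these sums do not give shares of tissue. In bulk tissue, fewer cells of a type and less RNA per cell cannot be told apart.

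In HCD-weaned females, subunit genes of all 4 complexes were mostly higher in offspring of HCD dams than in offspring of RD dams, and 4 members rose past the threshold. These were Cox5a and Cox6a1 of complex IV, Atp5d of complex V and Sdhb of complex II. Of the 45 members, 39 had a log2 fold change above 0, with a median of 0.40, against a median of 0.04 over all genes tested, of which 54.4% were above 0. Among other genes with a median transcript under 1000 bases, as 29 members have, 76.6% were above 0. A gene was called where the authors' deposited DESeq table gave it an adjusted p under 0.05; that held for 1.52% of the 15043 genes tested, and 0.984% were called with a positive fold change, against 4 of 45 members. At an unadjusted p under 0.05 there were 22 members, 21 of them above 0, against 2003 of 15043 genes (13.3%), 1068 of them above 0.

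Cox5a encodes a small nuclear subunit on the matrix side of complex IV. Its log2 fold change was 1.28 ± 0.23 (SE, 2.43-fold; adjusted p = 2.8e-05, authors' deposited table), the ninth lowest p of all genes tested there. Atp5d encodes the delta subunit of the central stalk that links the rotating ring to the catalytic head of ATP synthase. Its log2 fold change was 1.11 ± 0.21 (SE, 2.16-fold; adjusted p = 0.000141, authors' deposited table), the tenth lowest p. Cox6a1, the general form of a regulatory complex IV subunit, had 1.00 ± 0.24 (SE, adjusted p = 0.00998, authors' deposited table). Sdhb, the iron-sulfur subunit of complex II, had 0.79 ± 0.22 (SE, 1.73-fold; adjusted p = 0.0314, authors' deposited table). With the trend of the statistic with transcript length and GC content removed, Cox5a and Atp5d kept an adjusted p under 0.05, while Cox6a1 had 0.184 and Sdhb 0.263.

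The promoter windows of these 4 genes are shown because the genes moved in 1 direction and because factors named nuclear respiratory factors are known to bind promoters of respiratory genes. Each window runs from 250 bases before to 50 bases after a transcription start in RefSeq (GRCm38.p6). Capitals mark exact matches, on either strand, to GCGCANGCG (NRF1), CCGGAAG (GABP, also called NRF2), AAGATGG (YY1) or GGGCGG (Sp1).
Cox5a, chr9:57520982-57521281, plus strand: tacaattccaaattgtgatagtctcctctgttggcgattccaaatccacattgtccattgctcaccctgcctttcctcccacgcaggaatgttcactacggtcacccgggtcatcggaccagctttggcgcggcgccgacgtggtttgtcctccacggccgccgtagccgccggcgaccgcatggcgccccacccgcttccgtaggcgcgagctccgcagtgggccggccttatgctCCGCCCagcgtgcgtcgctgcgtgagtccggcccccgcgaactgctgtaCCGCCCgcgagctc
Atp5d, chr10:80142065-80142364, plus strand: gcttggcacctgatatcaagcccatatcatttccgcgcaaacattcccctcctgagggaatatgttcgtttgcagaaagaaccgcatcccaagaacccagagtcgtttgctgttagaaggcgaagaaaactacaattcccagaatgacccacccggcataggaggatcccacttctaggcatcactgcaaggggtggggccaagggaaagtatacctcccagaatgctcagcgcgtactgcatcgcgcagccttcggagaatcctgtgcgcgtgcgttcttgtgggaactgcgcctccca
Cox6a1, chr5:115348909-115349208, minus strand: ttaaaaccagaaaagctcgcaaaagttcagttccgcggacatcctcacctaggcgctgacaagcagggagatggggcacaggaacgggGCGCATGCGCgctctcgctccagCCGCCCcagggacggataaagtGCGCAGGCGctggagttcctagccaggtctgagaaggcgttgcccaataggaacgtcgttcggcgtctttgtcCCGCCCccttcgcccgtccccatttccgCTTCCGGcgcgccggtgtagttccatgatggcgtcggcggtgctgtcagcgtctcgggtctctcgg
Sdhb, chr4:140961021-140961320, plus strand: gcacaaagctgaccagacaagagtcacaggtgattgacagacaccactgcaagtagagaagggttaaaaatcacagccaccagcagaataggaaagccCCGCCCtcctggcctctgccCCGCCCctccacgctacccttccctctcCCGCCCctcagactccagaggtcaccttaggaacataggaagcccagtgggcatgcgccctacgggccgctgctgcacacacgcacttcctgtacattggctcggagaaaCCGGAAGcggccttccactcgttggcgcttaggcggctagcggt

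The 4 windows had no motif in common. Cox6a1 held 2 separate NRF1 stretches, 1 of them a palindrome that matches on both strands, with 1 GABP and 2 Sp1 matches. Sdhb held 1 GABP and 3 Sp1 matches, Cox5a 2 Sp1 matches and Atp5d none. RefSeq lists 2 overlapping windows for Atp5d; the one printed lies nearest the start of a protein-coding transcript, and the other held no match either. Of the 34 members with a RefSeq window, 13 (38.2%) held the NRF1 letters, against 7.03% of 27025 genes, and 12 (35.3%) held the GABP letters, against 9.93%. The Sp1 letters stood in 35.3% of the members' windows and in 38.2% of those of all genes, and the TATAAA letters in 5.88% and 15.7%. In HCD-weaned females the median log2 fold change was 0.53 in the 13 members with the NRF1 letters and 0.36 in the 21 without, and the ranges overlapped. For the GABP letters the order was the opposite, with a median of 0.36 in the 12 members with them and 0.47 in the 22 without, and those ranges overlapped too. A match of letters is a description of the window and was not tested for binding.

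Complex II in HCD-weaned females had 4 of 4 members above 0, with a median log2 fold change of 0.44. Beside Sdhb, the flavoprotein subunit Sdha, which oxidises succinate, had 0.37 ± 0.16 (SE, adjusted p = 0.274, authors' deposited table). The membrane anchor Sdhd had 0.51 ± 0.23 and the other anchor, Sdhc, had 0.14 ± 0.25 (SE, authors' deposited table), the lowest of the complex.

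Complex III in HCD-weaned females had 7 of 9 members above 0 and none called, with a median of 0.43, and 5 members had an unadjusted p under 0.05. Uqcrc1, a core protein of the complex, had the lowest adjusted p among them, 0.090, at a log2 fold change of 0.54 ± 0.18 (SE, authors' deposited table). Its partner core protein Uqcrc2 stood at the other end with -0.48 ± 0.23 (SE, adjusted p = 0.324, authors' deposited table). The Rieske iron-sulfur subunit Uqcrfs1 had 0.43 ± 0.25 and cytochrome c1, Cyc1, had -0.03 ± 0.22 (SE, authors' deposited table). The small subunits Uqcr10, Uqcr11, Uqcrb, Uqcrh and Uqcrq ranged between 0.06 for Uqcrh and 0.74 for Uqcr11. Cycs, the somatic cytochrome c that carries electrons between complexes III and IV, had 0.53 ± 0.23 (SE, adjusted p = 0.259, authors' deposited table).

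Complex IV in HCD-weaned females had 14 of 16 members above 0, with a median of 0.38, and held 2 of the 4 called genes. The 10 general forms were all above 0, with a median of 0.57 and a lowest value of 0.29 for Cox7b. Cox4i1 had 0.60 ± 0.26 (SE, adjusted p = 0.259, authors' deposited table). The 5 tissue isoforms had a median of 0.21, and the lowest, Cox6a2 of heart and skeletal muscle, had -0.40 ± 0.40 (SE, adjusted p = 0.803, authors' deposited table). The standard errors of these low-count isoforms, between 0.40 and 0.43, exceeded those of the general forms, so the paralogs were measured with unequal precision. Cox7a2l, a paralog of the Cox7a genes, had 0.61 ± 0.26 (SE, adjusted p = 0.253, authors' deposited table).

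Complex V in HCD-weaned females had 13 of 15 members above 0, with a median of 0.38. Within the head and central stalk, Atp5d had the highest value: the alpha subunit Atp5a1 had 0.31 ± 0.16, and the catalytic beta subunit Atp5b had -0.11 ± 0.20 (SE, authors' deposited table). The gamma subunit Atp5c1 had 0.23 ± 0.23 and the epsilon subunit Atp5e 0.36 ± 0.35 (SE, authors' deposited table). No test of one subunit against another was made. The outer stalk genes Atp5f1, Atp5h, Atp5j and Atp5o ranged between -0.12 for Atp5j, the lowest of the complex, and 0.64 for Atp5f1. The 3 c-ring genes had 0.38 for Atp5g1, 0.52 for Atp5g2 and 0.67 for Atp5g3, and none was called. Atp5j2, subunit f of the membrane part, had 0.73 ± 0.26 (SE, adjusted p = 0.124, authors' deposited table).

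**Figure D2:**
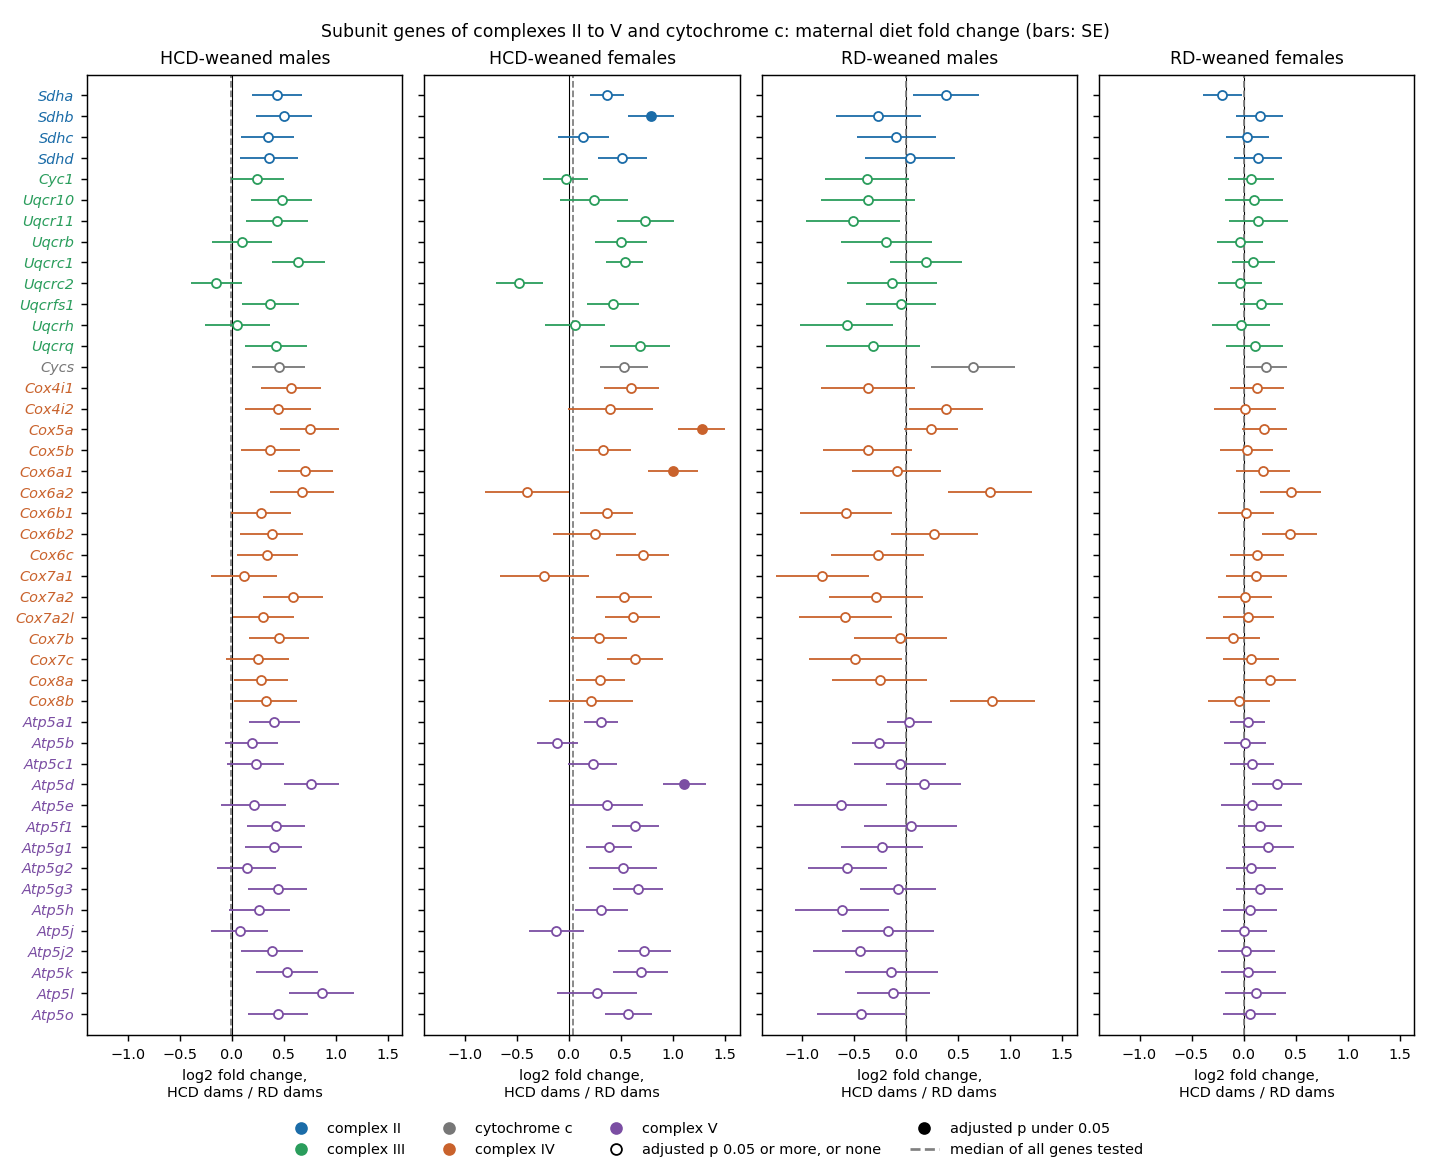
Log2 fold change between offspring of HCD dams and of RD dams (horizontal axis, bars: SE) of each member, 1 panel per comparison, from the authors' deposited tables; filled points have an adjusted p under 0.05 and the dashed line is the median of all genes tested. The filled points are Sdhb, Cox5a, Cox6a1 and Atp5d in HCD-weaned females.

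In HCD-weaned males, 44 of 45 members were higher in offspring of HCD dams than in offspring of RD dams, but none passed the threshold. The median log2 fold change was 0.39, against -0.01 over all genes tested, of which 48.9% were above 0. Among other genes with a median transcript under 1000 bases, as 29 members have, 78.6% were above 0. DESeq called 0 of 45 members, against 0.163% of 15384 genes; 8 members had an unadjusted p under 0.05, all 8 above 0, against 1253 genes (8.14%), 526 of them above 0. The lowest adjusted p of a member was 0.372, for Atp5d. The medians of the complexes were close to each other, at 0.40 for complex II, 0.37 for III, 0.38 for IV and 0.40 for V.

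The 4 genes called in females had positive values in HCD-weaned males as well. Cox5a had 0.75 ± 0.28 (SE; adjusted p = 0.456), the highest value of complex IV in the authors' deposited table of HCD-weaned males. Atp5d had 0.77 ± 0.26, Cox6a1 0.71 ± 0.27 and Sdhb 0.50 ± 0.27 (SE, authors' deposited table). Sdhb was the highest of complex II and Sdhc, at 0.35 ± 0.25 (SE), the lowest in that authors' deposited table. In complex III, Uqcrc1 was highest at 0.64 ± 0.26 and Uqcrc2 lowest at -0.15 ± 0.25 (SE, authors' deposited table); Uqcrc2 was the lowest of the complex in HCD-weaned females too. In complex IV the lowest was Cox7a1, the muscle form of subunit 7a, at 0.12 ± 0.32 (SE), in the authors' deposited table. In complex V, Atp5l had the highest value of all members, 0.86 ± 0.31 (SE; adjusted p = 0.422), at a mean normalized count of 69.0, and Atp5j the lowest, 0.08 ± 0.27 (SE), in the authors' deposited table. Among the other core genes of HCD-weaned males, Sdha had 0.44 ± 0.24, Cycs 0.45 ± 0.26, Cox4i1 0.57 ± 0.29 and Atp5a1 0.41 ± 0.24 (SE, authors' deposited table).

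Markers of hypothalamic neurons and of muscle also changed in this comparison. All 11 hypothalamic neuron markers were below 0 in HCD-weaned males, with a median log2 fold change of -1.22, and 5 of them were called: Sim1, Fezf1, Pmch, Hcrt and Oxt. All 4 measured markers of striated muscle were above 0, with a median of 0.69, and creatine kinase of muscle, Ckm, was called at 1.46 ± 0.32 (SE, authors' deposited table). The summed mean normalized count of the 5 muscle markers was 321 in that table. All 6 striatum markers were below 0, with a median of -0.72. DESeq called none of them, and 5 had an unadjusted p under 0.05. Of 5 choroid plexus markers 3 were above 0, with a median of 0.56. DESeq called none of these, and 3 had an unadjusted p under 0.05. In HCD-weaned females, 1 of 7 measured hypothalamic neuron markers was above 0, with a median of -0.43; DESeq called none, and 2 had an unadjusted p under 0.05. Of 5 astrocyte markers in those females 4 were below 0, with a median of -0.40, and the water channel Aqp4 was called at -1.25 ± 0.33 (SE, adjusted p = 0.0229, authors' deposited table). Xist, the RNA that silences an X chromosome, was also called there, at -0.94 ± 0.21 (SE, adjusted p = 0.00331, authors' deposited table). The part of these differences in tissue in the members' fold changes was not tested.

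**Figure D3:**
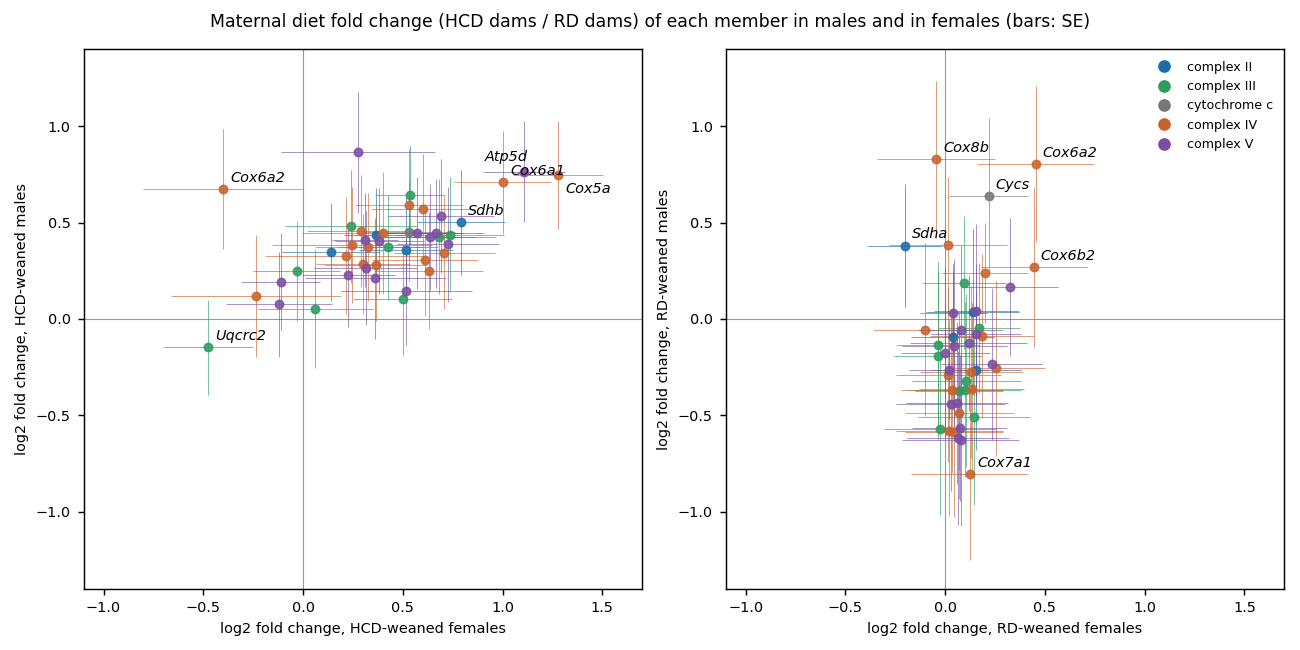
Log2 fold change between offspring of HCD dams and of RD dams (bars: SE) of each member in males (vertical axis) and in females (horizontal axis), for HCD-weaned offspring on the left and RD-weaned offspring on the right. On the left 39 of 45 members are above 0 in both sexes and only Uqcrc2 is below 0 in both; on the right 29 are above 0 in females alone.

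The members' values in the sexes were set side by side and tested gene by gene. In HCD-weaned offspring the median difference, males minus females, was -0.03 on the log2 scale, and 0 of 45 members were called, as were 0 of 14947 genes (0%). By this normal test of the difference, 1 member had an unadjusted p under 0.05, against 96 of all genes (0.642%). That member was Cox6a2, at 0.68 ± 0.31 in males and -0.40 ± 0.40 in females (SE, authors' deposited tables), a difference of 1.08 ± 0.51 (SE, adjusted p = 1.00). With only 0.642% of all genes at a p under 0.05, the normal test looks conservative here. That 0 members were called therefore does not show that the sexes are alike. Across the 45 members, which share libraries within a table, Pearson's r between the sexes was 0.56 and Spearman's rho 0.51, against a rho of 0.65 over 14947 genes. The largest gap toward females was that of Cox5a, which differed by -0.53, at 0.75 in males and 1.28 in females (authors' deposited tables), and the next was that of Uqcrb of complex III, at -0.40.

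In RD-weaned males most members were lower in offspring of HCD dams than in offspring of RD dams, though none was called. Only 12 of 45 members were above 0, with a median log2 fold change of -0.19, against 0.00 over all 12920 genes tested, of which 6462 were above 0. The members' share above 0, 26.7%, was near the 31.9% of other genes with a median transcript under 1000 bases. DESeq called 0 of the 42 members with an adjusted p, against 0.0851% of the genes tested, and 2 members had an unadjusted p under 0.05 (4.76%), a share near the 4.30% of all genes, or 555 of them. Sdha, Atp5g1 and Atp5l have neither an unadjusted nor an adjusted p in that authors' deposited table, at mean normalized counts of 8449, 1993 and 54.5. The standard errors were large here, with a median of 0.43 over the members. They reached 0.453, near the largest over all genes tested, 0.454, so these members' values are imprecise. The comparison has 6 library columns for 7 labelled mice, and which mouse is missing is not given. The medians were -0.03 for complex II, -0.32 for III, -0.27 for IV and -0.18 for V. These medians include Sdha, Atp5g1 and Atp5l.

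The 2 members with an unadjusted p under 0.05 were muscle forms of complex IV, both above 0. Cox8b had 0.83 ± 0.41 (SE; adjusted p = 1.00) at a mean normalized count of 21.8, and Cox6a2 had 0.80 ± 0.41 (SE; adjusted p = 1.00) at a mean of 129, in the authors' deposited table of RD-weaned males. Cox7a1, the third muscle form, was at the opposite end with -0.81 ± 0.45 (SE, authors' deposited table), so these isoforms did not share a direction. Of the 5 muscle markers, 4 had a mean normalized count under 10 in that table. The 10 general forms of complex IV had a median of -0.28, and Cox5a alone of them was above 0, at 0.24 ± 0.26 (SE, authors' deposited table). Cox6b1, Cox7a2l and Cox4i1 had -0.58 ± 0.44, -0.58 ± 0.44 and -0.37 ± 0.45 (SE, authors' deposited table).

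In complex II of RD-weaned males, Sdha, which has no p-value there, was highest at 0.38 ± 0.32 and Sdhb lowest at -0.27 ± 0.41 (SE, authors' deposited table). Between them lay Sdhd at 0.04 ± 0.43 and Sdhc at -0.09 ± 0.38 (SE, authors' deposited table). In complex III, Uqcrc1 was the only member above 0, at 0.19 ± 0.34, and Uqcrh was lowest at -0.57 ± 0.45 (SE, authors' deposited table). Cycs, with 0.64 ± 0.41 (SE, adjusted p = 1.00, authors' deposited table), was above 0. In complex V, Atp5d was highest at 0.17 ± 0.36 and Atp5e lowest at -0.63 ± 0.45 (SE, authors' deposited table). Of 7 measured hypothalamic neuron markers 6 were below 0 in this comparison, with a median of -0.17, and DESeq called none. The thalamus markers were above 0 in 6 of 6, with a median of 0.41. DESeq called none of them and 1 had an unadjusted p under 0.05. Of 5 neuron markers 4 were above 0, with a median of 0.30, and Snap25, a synaptic vesicle fusion protein, was called at 0.88 ± 0.14 (SE, adjusted p = 2.31e-06, authors' deposited table). The part of any of these marker lists in the members' values was not tested.

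RD-weaned females showed small fold changes in the authors' deposited table. The largest standard error over all genes tested was 0.30 there, against 0.45 in HCD-weaned females. Fold changes look shrunken toward 0 in each table separately, so sizes in different tables may not be on 1 scale. Of the 45 members, 39 were above 0, but the median log2 fold change was only 0.08, against 0.01 over all genes tested, of which 50.9% were above 0. Among other genes with a median transcript under 1000 bases, 58.4% were above 0. DESeq called 0 members, against 0.346% of 15028 genes, and 0 members had an unadjusted p under 0.05, against 926 genes (6.16%). The medians were 0.09 for complex II, 0.10 for III, 0.10 for IV and 0.07 for V, and all 15 members of complex V were above 0. The extremes were Cox6a2 at 0.45 ± 0.29 and Sdha at -0.20 ± 0.19 (SE, authors' deposited table). In complex II the highest was Sdhb at 0.16 ± 0.23 (SE, authors' deposited table). In complex III, Uqcrfs1 at 0.17 ± 0.21 and Uqcrb at -0.04 ± 0.22 (SE) stood at the ends in the authors' deposited table. In complex IV the lowest was Cox7b at -0.10 ± 0.26, and in complex V Atp5d was highest at 0.32 ± 0.24 and Atp5j lowest at 0.00 ± 0.22 (SE, authors' deposited table). Markers of cortex and hippocampus were above 0 in 6 of 6 in this comparison, with a median of 0.97; DESeq called none and 4 had an unadjusted p under 0.05. The thalamus markers were above 0 in 0 of 6. Of 10 measured hypothalamic neuron markers 9 were below 0, with a median of -0.26. DESeq called none of them and 1 had an unadjusted p under 0.05. All 6 striatum markers were above 0, with a median of 0.42. DESeq called none of these and 2 had an unadjusted p under 0.05. All 5 choroid plexus markers were above 0, with a median of 0.68, and Kl was called at 1.01 ± 0.23 (SE, adjusted p = 0.00867, authors' deposited table). All 5 microglia markers were above 0 as well, with a median of 0.36; DESeq called none and 2 had an unadjusted p under 0.05. The part of these lists in the members' values was not tested.

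**Figure D4:**
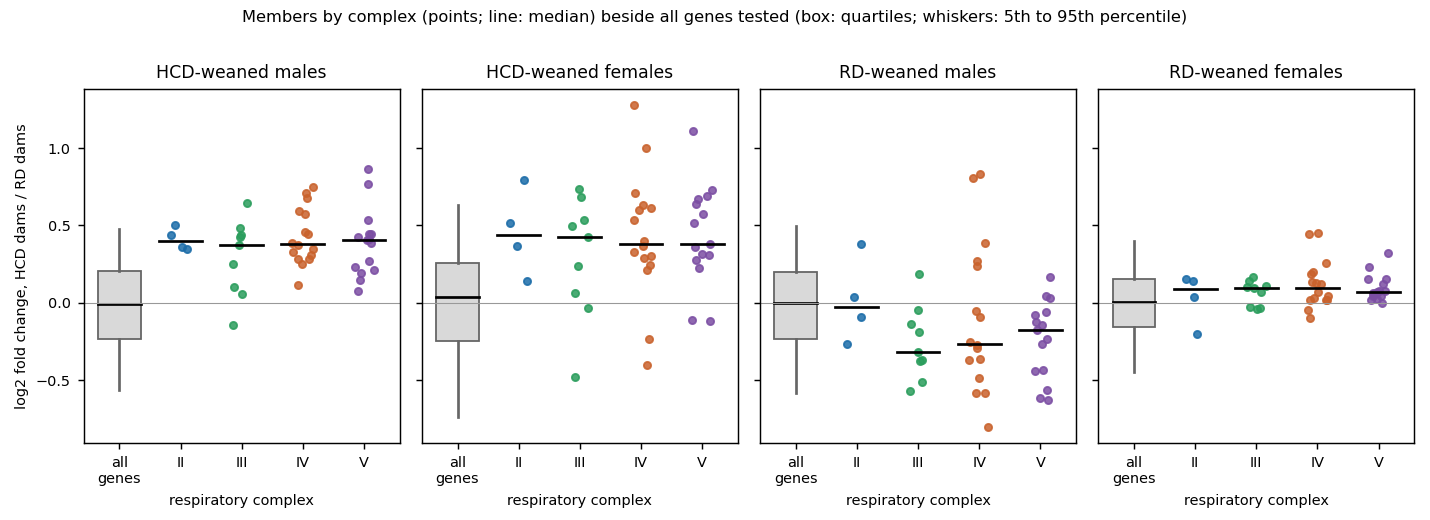
Log2 fold change between offspring of HCD dams and of RD dams of the members of each complex (points, with the median as a line) beside all genes tested (box: quartiles; whiskers: 5th to 95th percentile), 1 panel per comparison. In HCD-weaned males and females the medians of all 4 complexes, 0.37 to 0.44, lie above the median of all genes, and in RD-weaned males they lie between -0.32 and -0.03.

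Set beside each other, the medians of the complexes lay close together within a comparison, least so in RD-weaned males. In HCD-weaned males the 4 medians spanned 0.37 to 0.40, and in HCD-weaned females they spanned 0.38 to 0.44. The spread within a complex was wider, and in HCD-weaned females complex IV ran between -0.40 for Cox6a2 and 1.28 for Cox5a (authors' deposited table). In RD-weaned males the medians ran from -0.32 for complex III, with 8 of 9 members below 0, to -0.03 for complex II. The error of a median was not estimated. No complex was tested against another.

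Weaning diet was compared through the same difference test. Fold changes may be shrunken to unlike degrees in the tables, which the test does not take into account. In females, HCD-weaned minus RD-weaned, the median difference was 0.38 and 38 of 45 members were above 0, but 0 members were called, against 0.00685% of 14603 genes. By that normal test, 5 members (11.1%) had an unadjusted p under 0.05, against 730 genes (5.00%): Sdha, Sdhb, Cox5a, Cox6a1 and Atp5d. The largest was Cox5a, with 1.28 ± 0.23 for HCD-weaned females and 0.20 ± 0.21 for RD-weaned females (SE, authors' deposited tables), a difference of 1.08 ± 0.31 (SE; adjusted p = 0.300). In males, HCD-weaned minus RD-weaned, the median difference was 0.61 and 38 of 42 members were above 0; with the sign of the RD-weaned table turned, the median was 0.14 and 27 of 42 were above 0. There 0 members were called, against 0.00775% of 12910 genes, and 0 had an unadjusted p under 0.05, against 496 genes (3.84%). In RD-weaned offspring, males minus females, the median difference was -0.28, with 0 members called against 0.00791% of 12636 genes and 0 at an unadjusted p under 0.05, against 385 genes (3.05%). With the sign of the RD-weaned female table turned, 2 members, Cox5a and Atp5d, passed the threshold in the difference, as did 186 genes in all; 41 of 45 members were then above 0, with a median of 0.55.

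Most members have short transcripts, and fold changes followed transcript length over all genes. The median transcript of a member measured 718.5 bases, against 2693 for the genes tested in HCD-weaned females, and 29 of 45 members were under 1000 bases. Over all genes, Spearman's rho between the Wald statistic and length was -0.53 for HCD-weaned males and -0.43 for HCD-weaned females, but 0.10 for RD-weaned males and -0.20 for RD-weaned females; genes of a table share libraries, so no p is given. The 29 members under 1000 bases had a median log2 fold change of 0.39 in HCD-weaned males, against 0.23 for other genes of that length, and of 0.50 against 0.24 for HCD-weaned females. For RD-weaned males the same medians were -0.29 for the short members against -0.18 for other short genes, and for RD-weaned females 0.08 against 0.04. Above 0 were 29 of the 29 short members in HCD-weaned males, against 78.6% of other short genes, and 26 in HCD-weaned females, against 76.6%. For RD-weaned males 6 of the 29 were above 0, against 31.9%, and for RD-weaned females 26, against 58.4%. The 16 members of 1000 bases or more had a median of 0.39 in HCD-weaned males, against -0.03 for all genes tested of that length, and of 0.37 against 0.02 for HCD-weaned females. That class has no upper bound, whereas the longest member, Cycs, measured 3123 bases. With the trend with length and GC content removed, these 16 had a median of 0.26 in HCD-weaned males, against 0.01 for the class. In HCD-weaned females it was 0.30 against 0.04. In HCD-weaned females 3 of the 29 short members were called up, against 38 of 1210 other short genes. Of the 16 longer members 1 was called up, against 103 of 13268 genes of that length. These longer members had -0.06 against 0.01 for RD-weaned males and 0.07 against 0.00 for RD-weaned females. With the trend with length and GC content removed, 38 of 45 members were above 0 for HCD-weaned males, with a median of 0.20, and 35 of 45 for HCD-weaned females, with a median of 0.29. The same removal left 14 of 42 above 0 for RD-weaned males, with a median of -0.11, and 37 of 45 for RD-weaned females, with a median of 0.06.

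**Figure D5:**
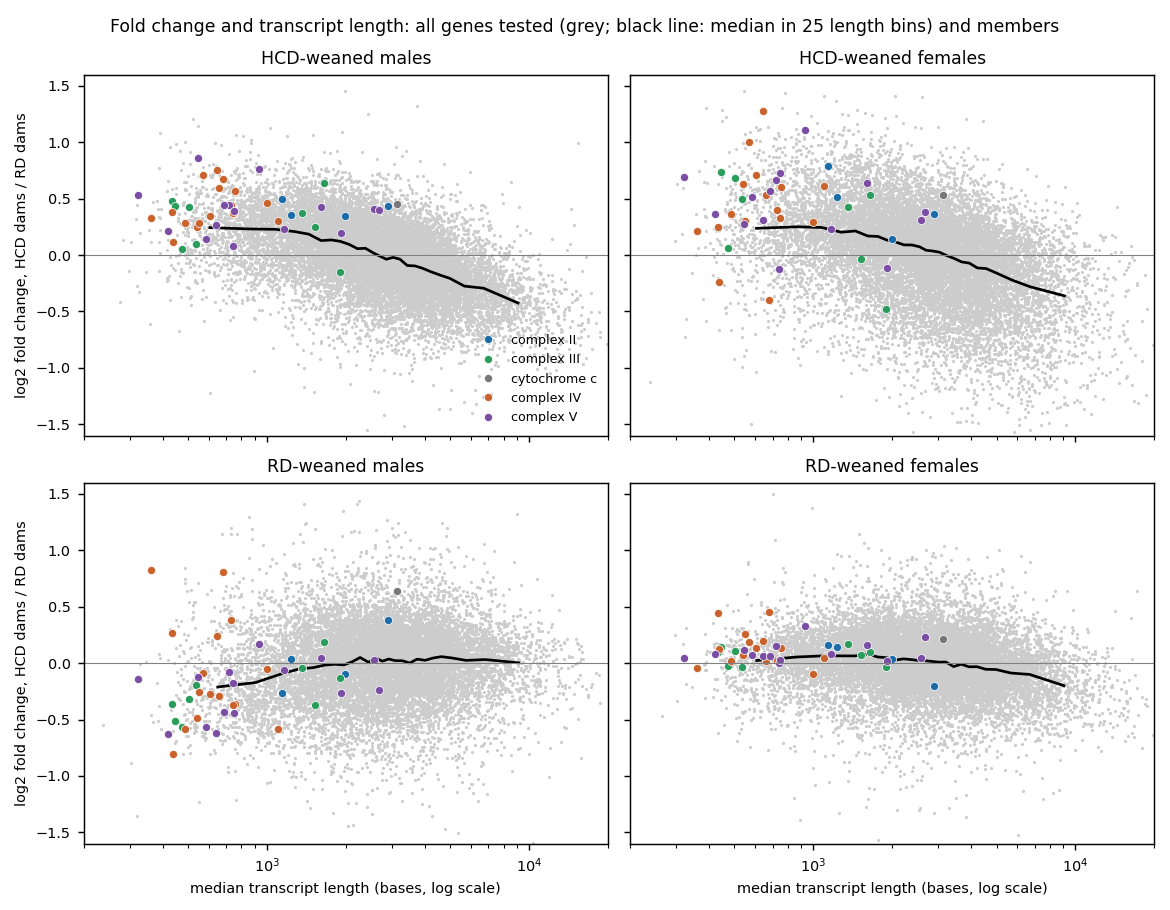
Log2 fold change between offspring of HCD dams and of RD dams against median transcript length (log scale) for all genes tested (grey, with the median in 25 length bins as a black line) and for the members (coloured by complex), 1 panel per comparison; values beyond the axes are not drawn. The line falls with length in the HCD-weaned panels, and the members lie at the short end, with 29 of 45 under 1000 bases.

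Other genes of energy metabolism, and ribosomal protein genes, were also mostly higher in offspring of HCD dams among HCD-weaned females. Of 36 measured complex I subunits, 35 were above 0 with a median of 0.62, and 8 were called, all up, where 0.984% of all genes were; Ndufs7, an iron-sulfur subunit, had 1.26 ± 0.21 (SE, authors' deposited table). Of 10 genes of ATP and phosphate exchange, 5 rose: Slc25a3, the phosphate carrier, Slc25a5, an ADP/ATP carrier, Vdac1, the outer membrane channel, and the creatine kinases Ckmt1 and Ckb. Ckb had 1.28 ± 0.18 (SE, authors' deposited table). Of 13 citric acid cycle genes, 3 rose, namely Mdh2, Fh1 and Sucla2. Among 31 measured assembly factors of complexes II to V, 1 rose: Cox17, a copper chaperone of complex IV, with a log2 fold change of 1.23 in the authors' deposited table. The 11 regulators of mitochondrial biogenesis had a median of 0.01; DESeq called 0, and 0 had an unadjusted p under 0.05. Of 82 cytosolic ribosomal proteins 3 rose, with a list median of 0.32, and of 77 mitochondrial ribosomal proteins 1 rose, a share near that of all genes, with a list median of 0.29. Above 0 were 69 of the 82 and 68 of the 77. In HCD-weaned males the complex I list had 35 of 36 above 0 with a median of 0.42. DESeq called none of them and 11 had an unadjusted p under 0.05. Cytosolic ribosomal proteins there were above 0 in 74 of 83, with a median of 0.33, and mitochondrial ones in 72 of 77, with a median of 0.27. DESeq called 1 of the 83, up, and 0 of the 77, where 0.163% of all genes were called. At an unadjusted p under 0.05 there were 17 and 4, against 8.14% of all genes. In RD-weaned males 5 of 36 complex I subunits and 5 of 80 cytosolic ribosomal proteins were above 0, with medians of -0.24 and -0.41, and in RD-weaned females 27 of 36 and 27 of 81, with medians of 0.06 and -0.04.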

How the data were processed

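Hypothalamic poly(A) RNA was sequenced from stranded libraries, per the labels' protocols. DESeq (version not given) and build mm10 are named in the submitters' processing notes; the sources used here name no aligner, counter or annotation. Only the 4 tables of the authors' comparisons, out of 12 deposited files, were used. Their mean normalized count is a signal, counts over size factors averaged over libraries, per the file headers. Per the file headers, log2 values give the fold change and its standard error. The Wald statistic, a score, and each p-value and adjusted p-value are as the authors deposited them. Fold changes look shrunken toward 0. The 48 library columns match no label and were not used, so the planned count test (edgeR, DESeq2) and any fit by sample could not be made; the authors' Wald test stands instead. RD-weaned males have 6 library columns for 7 labelled mice.

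Positive values were taken as HCD dams over RD dams. Differences between tables were divided by the root of the summed squared standard errors, referred to the normal distribution (two-sided) and Benjamini-Hochberg adjusted over all shared genes. Transcript length and GC content came from GENCODE M21 (GRCm38), with 4 spline degrees of freedom each. Copies were sought with blastn 2.17.0; other steps used Python 3.11.15, scipy 1.17.1, pandas 2.3.3 and patsy 1.0.2, and were tested on simulated data. Named genes were called members, the extremes of each complex, core subunits and isoform sets, and called genes of other lists. Members and lists were chosen with earlier results of these data known.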

Additional observations from a re-analysis of the deposited data

How the results depend on the processing

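The count of 4 called members in HCD-weaned females became 2 with the statistic divided by its robust spread and 2 with length and GC content trends removed; Cox5a and Atp5d remained in both. Cox6a1 then had an adjusted p of 0.0597 or 0.184, and Sdhb 0.129 or 0.263. Over all genes, 229 were called in that table, against 56 and 60. At an adjusted p under 0.10, Uqcrc1 joined, giving 5. No member was called in the other 3 comparisons under any of these settings, a minimum mean count of 100 and centring included. The count of members differing in HCD-weaned females minus RD-weaned females was 0, and 2 with the sign of the RD-weaned table turned. The members' median log2 fold change kept its sign in all 4 comparisons under the alternatives run, but its size moved: the removal of length and GC content trends gave 0.20 and not 0.39 for males weaned to HCD, and 0.29 and not 0.40 for females weaned to HCD. For offspring weaned to RD it gave -0.11 and not -0.19 for males, and 0.06 and not 0.08 for females. No paired analysis was possible because the library columns carry no replicate number of the labels; leaving out replicates, other normalizations and count tools were not run for the same reason. With 3 or 4 labelled mice a group and standard errors up to 0.45, small differences in single subunits were not detectable. For RD-weaned males only 6 library columns stand for the 7 labelled mice.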
